A study of Mus musculus with 2 samples.

Results

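The genes Gad1, Gad2, Reln, Pvalb and Sst mark inhibitory interneurons, and their CpG methylation was read in bulk hippocampus, the brain region needed for spatial and episodic memory. Members were the cytosines with at least 10 reads in both libraries inside fixed mm9 spans that hold each gene with its flanks, 713 cytosines of 2312276 in all. Gad1 held 283 of them (chromosome 2, 70386001 to 70446000), Gad2 204 (chromosome 2, 22472001 to 22556000), Reln 135 (chromosome 5, 21384001 to 21856000), Pvalb 65 (chromosome 15, 78015001 to 78043000) and Sst 26 (chromosome 16, 23883001 to 23897000). The study compared 1 library of C57BL/6 offspring exposed to 5000 ppb arsenic trioxide (ATO) with 1 library of untreated C57BL/6 controls. Arsenic was given in drinking water, from before mating to lactation and then to the weaned offspring. No source used here gives the age, the sex or the number of animals behind a library. With no replicate in either group, every test below compares these libraries and not the exposure.

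Interneurons release gamma-aminobutyric acid (GABA) and restrain the principal cells of the hippocampus. Gad1 and Gad2 encode the glutamate decarboxylases that make GABA. Reln encodes reelin, a secreted glycoprotein that guides neuron positioning and is made by Cajal-Retzius cells and some interneurons. Pvalb encodes a calcium buffer of fast-spiking basket cells, and Sst a neuropeptide of dendrite-targeting interneurons. Genes in use by a cell type often lose CpG methylation there, while CpG-dense promoters mostly stay unmethylated in every cell type. The level in bulk DNA is an average over all cells. A changed share of interneurons and a changed level within cells cannot be told apart in it, and methylation tables hold no RNA with which to check the tissue or cell type labels against their markers.

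All 5 symbols were found in the RefSeq promoter table (GRCm38.p6), each start with 250 bases before and 50 after it. These windows are shown because the position of every gene part below rests on them. Each was placed in mm9 by the spacing of its CpGs, as no mm9 annotation was used. All 21 CpGs of Gad1, 14 of Gad2, 47 of Reln and 25 of Pvalb, and 12 of the 13 of Sst, fell on listed CpG positions. The mm9 windows were chr2:70399936-70400235 (plus strand) for Gad1, chr2:22477597-22477896 (plus) for Gad2, chr5:21850474-21850773 (minus) for Reln, chr15:78034618-78034917 (minus) for Pvalb and chr16:23890881-23891180 (minus) for Sst. The sequences run 5′ to 3′ along the gene, and capitals mark CpGs.
Gad1 promoter: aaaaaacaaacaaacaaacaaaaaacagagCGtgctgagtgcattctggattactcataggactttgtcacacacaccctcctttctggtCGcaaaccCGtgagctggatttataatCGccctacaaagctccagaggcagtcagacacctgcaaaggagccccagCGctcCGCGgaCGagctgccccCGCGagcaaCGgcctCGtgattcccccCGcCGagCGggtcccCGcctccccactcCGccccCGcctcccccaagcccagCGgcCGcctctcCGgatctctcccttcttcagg
Gad2 promoter: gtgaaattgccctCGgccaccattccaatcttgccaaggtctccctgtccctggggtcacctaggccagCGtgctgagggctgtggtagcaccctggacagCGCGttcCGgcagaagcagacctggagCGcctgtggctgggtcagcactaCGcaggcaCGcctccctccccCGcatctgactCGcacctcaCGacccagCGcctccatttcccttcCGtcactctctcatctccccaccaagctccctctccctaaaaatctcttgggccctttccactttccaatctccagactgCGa
Reln promoter: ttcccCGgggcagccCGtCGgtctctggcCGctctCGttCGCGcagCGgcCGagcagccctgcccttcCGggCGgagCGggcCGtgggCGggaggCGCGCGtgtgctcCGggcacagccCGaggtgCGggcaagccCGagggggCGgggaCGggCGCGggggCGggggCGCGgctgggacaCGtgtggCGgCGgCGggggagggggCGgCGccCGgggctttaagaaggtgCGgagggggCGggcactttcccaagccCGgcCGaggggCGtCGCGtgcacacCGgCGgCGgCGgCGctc
Pvalb promoter: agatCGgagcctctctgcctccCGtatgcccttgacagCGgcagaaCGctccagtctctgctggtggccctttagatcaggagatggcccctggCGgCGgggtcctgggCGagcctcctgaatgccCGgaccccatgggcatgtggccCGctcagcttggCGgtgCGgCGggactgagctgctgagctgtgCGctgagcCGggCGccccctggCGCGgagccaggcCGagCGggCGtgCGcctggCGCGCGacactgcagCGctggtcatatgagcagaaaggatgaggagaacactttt
Sst promoter: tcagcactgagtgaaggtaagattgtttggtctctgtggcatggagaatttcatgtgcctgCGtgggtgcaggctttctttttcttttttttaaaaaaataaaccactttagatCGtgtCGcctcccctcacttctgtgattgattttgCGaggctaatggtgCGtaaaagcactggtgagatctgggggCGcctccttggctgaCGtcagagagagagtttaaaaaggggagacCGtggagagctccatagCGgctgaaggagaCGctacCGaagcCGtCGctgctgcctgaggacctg
Pvalb has 2 starts in that table. The one shown is CpG-dense, and the other, which lies upstream of it, could not be placed. Exons, introns and untranslated regions are not given here for want of an mm9 annotation.

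Most analysed cytosines of the marker genes other than Reln were unmethylated or nearly so, and the mean level over all 5 genes was near equal in the libraries. Over the 713 cytosines methylation averaged 16.3% in ATO and 16.5% in the control, with SDs over cytosines of 26.8 and 27.1, against 36.7% and 38.0% over all analysed cytosines. The difference, ATO minus control, was -0.19 points, with a 95% interval of -3.17 to 2.78 that covers counting error only. The sign depended on the processing: the difference was 0.51 points with every read call weighted alike and 0.09 points at a coverage minimum of 5. Over all analysed cytosines the difference was -1.28 points. Among the members 299 cytosines were higher in ATO, 301 lower and 113 equal. Levels of the libraries correlated at r = 0.94 across the 713 cytosines, which share fragments and are no replicates, against 0.95 over all analysed cytosines. Across the 95 members with a mean of both libraries between 20 and 80% r was 0.65, against 0.54 over all such cytosines. Of the members, 509 had a mean level under 10%, which is 71.4% of them, against 44.6% of all analysed cytosines. By gene the share was 79.2% in Gad1, 78.9% in Gad2, 69.2% in Pvalb, 92.3% in Sst and 40.7% in Reln. Median coverage was 47 reads in ATO and 45 in the control, and 707 of the 713 lay on the reverse strand.

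A cytosine was called where Fisher's exact test gave a Benjamini-Hochberg adjusted p under 0.05 over the whole table and the levels differed by at least 25 points. In all, 5 member cytosines were called, 4 in the span of Reln and 1 in that of Pvalb, 2 of them higher and 3 lower in ATO. With no minimum difference the number was 13, against 89664 of the 2312276 in the whole table. At an adjusted p under 0.01 the number was 2, against 39902 in the whole table. It was 0 once counts were divided by 2.77, the dispersion between the strands of a CpG, against 1915 in the whole table. The 5 calls are 0.70% of the members, against 2.65% of all analysed cytosines (0.916% higher and 1.73% lower in ATO). The rule itself sets part of this contrast, because a cytosine with a mean under 10% cannot differ by 25 points. Of the members 71.4% were such cytosines and could not be called, against 44.6% of all analysed cytosines. Calls therefore lie mostly at partly methylated cytosines, those with a mean of both libraries between 20 and 80%. The members held 95 of these, and 5 of the 95 were called (5.26%), against 9.25% of such cytosines in the whole table (3.19% higher and 6.07% lower in ATO). They averaged 48.4% in ATO and 50.3% in the control, a difference of -1.91 points (interval -7.77 to 3.97), with 41 higher and 53 lower. Over all partly methylated cytosines the difference was -3.76 points. Without Reln the value of the members was -0.11 points, and leaving out any other gene gave -1.78 to -2.88 points. None of the 42 bins of 500 bp was called by Fisher's exact test at an adjusted p under 0.05 and 20 points, while 3 had an unadjusted p under 0.05 (7.14%, against 7.95% of all bins). Of all bins in the genome, 1.8% were called (0.63% higher and 1.17% lower in ATO). Of the partly methylated bins, 8 among the members, 4.38% were called in the whole table (1.53% higher and 2.84% lower).

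**Figure D1:**
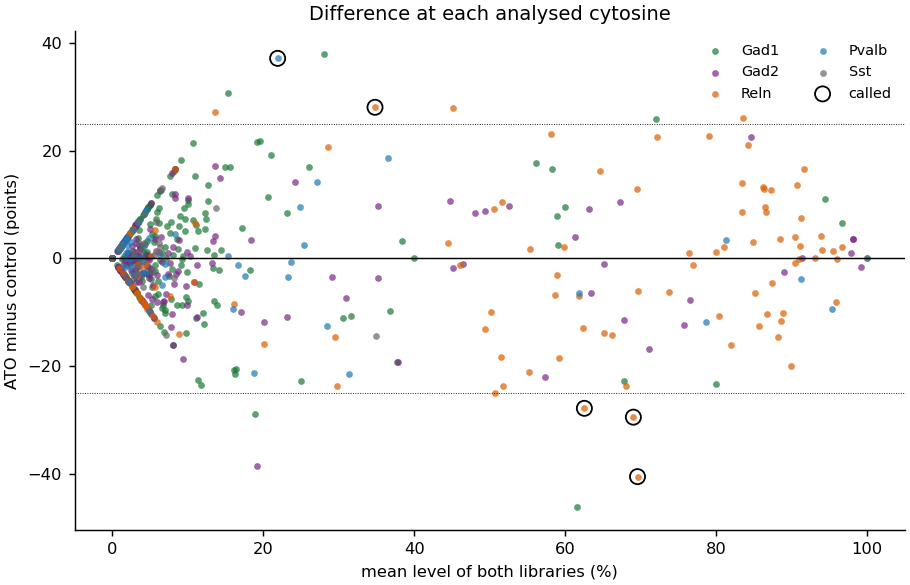
Difference in methylation (ATO minus control, percentage points) at each of the 713 analysed cytosines against the mean level of both libraries (percent), coloured by gene. Circles mark the 5 called cytosines and dotted lines lie at 25 points either way; the 509 cytosines under 10% cluster around 0.

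Gad1, which makes the bulk of GABA in the cell body, lay in a broad unmethylated domain. From -1020 to 5196 bp relative to the start (positive downstream), 165 consecutive analysed cytosines each had a mean level under 20%. They averaged 3.75% in ATO and 3.81% in the control, although no cytosine was analysed over a gap of 2428 bp within the domain. Within 500 bp of the start the level was 2.90% ± 3.16 in ATO and 3.17% ± 2.77 in the control (SD over 34 cytosines). At the start itself the depth was low. Of the 21 CpGs printed above 1 had 10 reads in both libraries, and over all listed reads 1 of 122 calls was methylated in ATO and 1 of 200 in the control. The exact 95% upper bounds of these shares, 4.48% and 2.75%, take every call as independent. They are too low, since calls share fragments and no listed cytosine there had more than 11 reads in ATO or 18 in the control.

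The 85 Gad1 cytosines more than 500 bp upstream of the start, which take in the upstream end of the domain, averaged 12.9% in ATO and 11.5% in the control. The bin with the largest difference in Gad1, at 70397501 to 70398000 and centred at -2435 bp, read 17.6% in ATO (exact interval 10.2 to 28.3) and 7.45% in the control (3.01 to 14.6) over 16 cytosines. It was not called by Fisher's exact test (unadjusted p = 0.038, adjusted p = 0.54), and the intervals overlap. At 70397807 in this bin 30.5% of 95 reads were methylated in ATO and 8.73% of 126 in the control, a difference of 21.8 points. This cytosine passed Fisher's exact test (adjusted p = 0.0027) and missed the 25 points. So did 70397758 in the same bin, at 24.1% in ATO and 7.14% in the control (Fisher's exact test, adjusted p = 0.039). Outside the bin 70405624 did too, at 18.6% in ATO and 3.26% in the control (Fisher's exact test, adjusted p = 0.034). These cytosines were singled out after their values were seen. In the bin next upstream of 70397501 the direction was the opposite, 9.69% in ATO and 13.2% in the control. Farther downstream, beyond 13 kb from the start, 6 thinly read cytosines (10 to 27 reads) were partly or highly methylated.

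Gad2, whose enzyme supplies GABA mainly at nerve terminals, also lay in a broad unmethylated run. The run held 171 cytosines from -2872 to 3036 bp relative to the start, averaging 3.36% in ATO and 4.20% in the control, with no cytosine analysed over a gap of 1519 bp. The 14 CpGs of the printed promoter were all analysed. They averaged 2.60% in ATO and 1.74% in the control, and none exceeded 5.22% in ATO or 5.26% in the control. Downstream of them, at 22478046, 12.7% of 79 reads were methylated in ATO and 0 of 74 in the control (Fisher's exact test, adjusted p = 0.042), a difference under the 25 points at a cytosine singled out after its values were seen. Levels were higher on both sides of the run. The cluster of 11 cytosines around 4 kb upstream averaged 43.2% in ATO and 47.1% in the control. A cluster of 9 cytosines 12.5 kb downstream averaged 53.5% and 52.3%, and a cluster of 9 at 67.6 kb downstream 87.2% and 83.3%, ATO first in each. None of the differences of these clusters, -3.90, 1.23 and 3.87 points, had an interval clear of 0, and the last was 1.54 points at a coverage minimum of 20. The bin with the largest difference in Gad2, at 22474501 to 22475000, read 20.9% in ATO and 30.8% in the control (Fisher's exact test, adjusted p = 1).

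**Figure D2:**
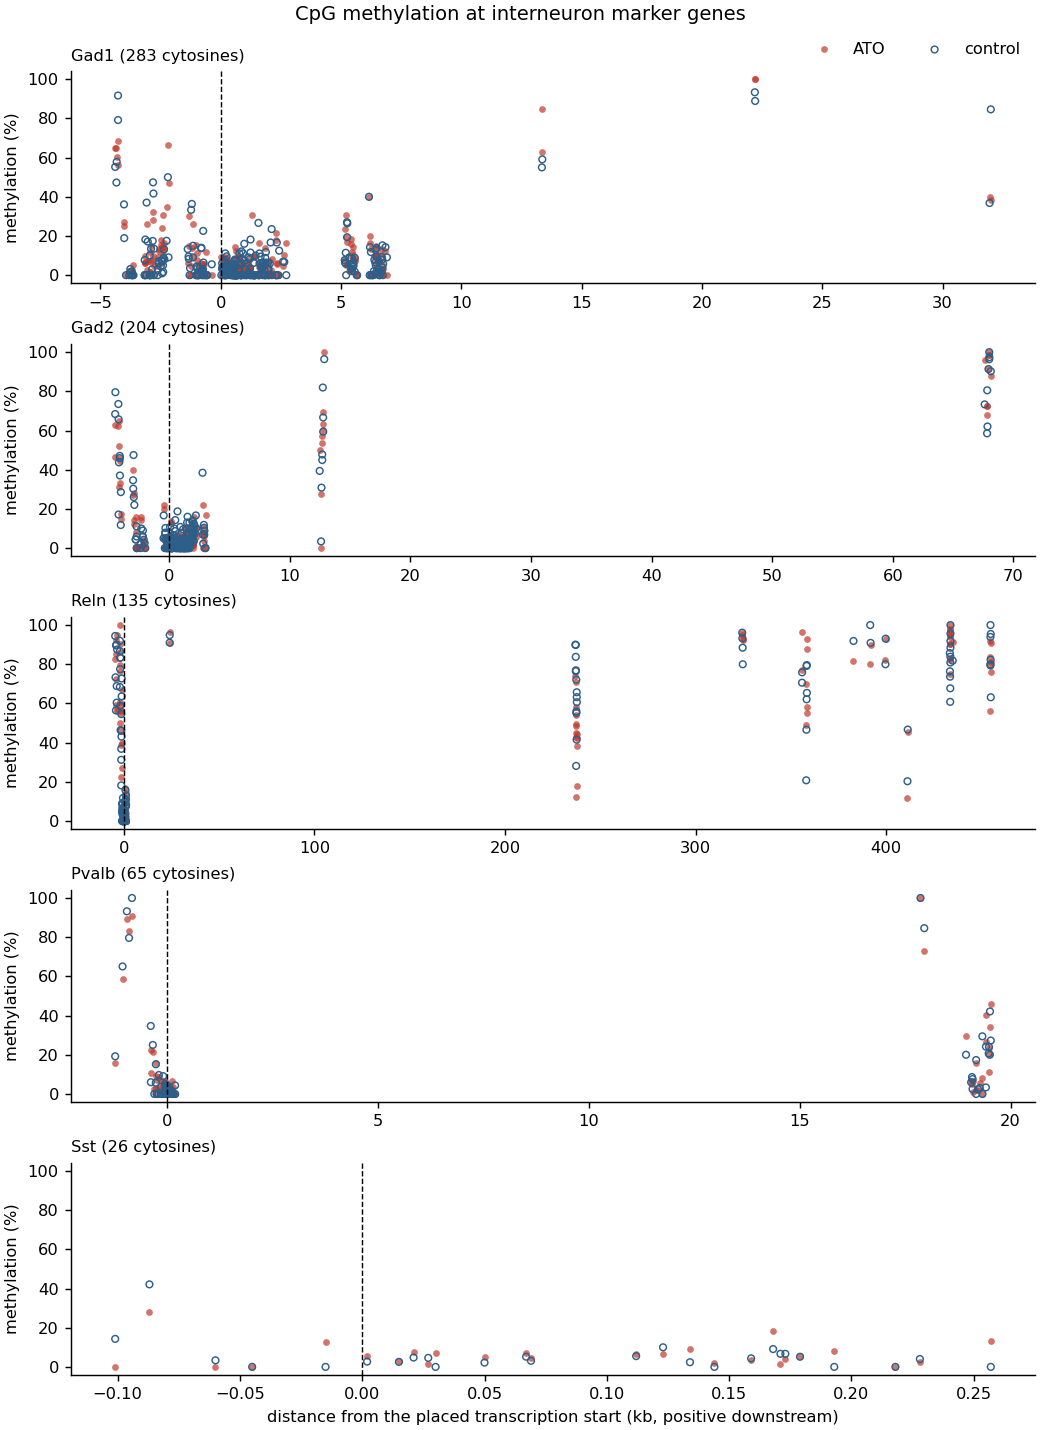
Methylation (percent) of each analysed cytosine against its distance from the placed start (kb, positive downstream, dashed line at the start), with 1 panel per gene; filled points are ATO and open points the control. Near the starts most points of both libraries lie close to 0, and distal cytosines of Gad1, Gad2, Reln and Pvalb reach 80 to 100% in both. Pvalb cytosines from 842 bp upstream already reach 90.7% in ATO and 100% in the control. The highest Sst cytosine lies at 27.8% in ATO and 42.1% in the control.

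Reln, the longest span at 472 kb, was read thinly. It held 2.86 analysed cytosines per 10 kb, against 47.2 in Gad1. The promoter, 80.7% G or C, had 0 of its 47 CpGs at 10 reads in both libraries. Over all listed reads of both strands, 3 of 245 calls in it were methylated in ATO (1.22%, exact 95% interval 0.25 to 3.54) and 5 of 209 in the control (2.39%, 0.78 to 5.49). These intervals take every call as independent and are too narrow, since calls share fragments. No listed cytosine there had more than 10 reads in ATO or 7 in the control. Around it, 58 consecutive analysed cytosines from -900 to 1154 bp relative to the start averaged 2.12% in ATO and 3.40% in the control. No cytosine was analysed over a gap of 912 bp within this run, which takes in the whole printed promoter. The 55 cytosines of Reln under 10% averaged 1.32% in ATO and 3.21% in the control, with 9 higher, 23 lower and 23 equal. On divided calls their exact intervals, 0.03 to 6.38% and 0.72 to 9.75%, overlap. GC boxes (GGGCGG on either strand) had 6 matches in the printed promoter, and 35.7% of the 32851 promoters in the table hold at least 1.

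Far downstream of the Reln start the DNA was methylated, and the libraries differed there in both directions. The largest difference lay 237 kb downstream, on chromosome 5 from 21612810 to 21613590. All 13 analysed cytosines in these 781 bp were lower in ATO, with a mean of 46.0% in ATO (range 12.2 to 73.9%) and 66.1% in the control (28.1 to 90.0%). The difference was -20.1 points ± 9.23 (SD over 13 cytosines; interval for counting error -32.1 to -7.28), with median coverages of 74 and 68 reads. The 3 called cytosines lay within 15 bp. At 21613360, 49.4% of 77 reads were methylated in ATO and 89.9% of 69 in the control (Fisher's exact test, adjusted p = 2.4e-05). At 21613353 the levels were 48.6% in ATO and 76.5% in the control (Fisher's exact test, adjusted p = 0.030), and at 21613367 they were 54.3% and 83.8% (adjusted p = 0.0063). These 3 share fragments and do not count as separate evidence. The bin that holds them read 46.6% in ATO (exact interval 36.9 to 56.7) and 67.1% in the control (56.3 to 76.0), a difference of -20.5 points that was not called (Fisher's exact test, unadjusted p = 0.0046, adjusted p = 0.14).

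This cluster was singled out after its values were seen. Among all clusters of 10 to 19 analysed cytosines with a partly methylated mean, gaps inside a cluster being at most 1000 bp, 4.53% had every cytosine lower in ATO and 12.2% had a mean difference of -15 points or less. Of clusters of 5 or more cytosines with a partly methylated mean, the members held 6. Every cytosine was lower in ATO in 1 of the 6, against 7.22% of all such clusters, and every cytosine was higher in 0 of the 6, against 2.51%. A called cytosine lay in 3 of the 6, against 41.2%.

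Of the other 3 distal Reln clusters, 2 were higher in ATO and 1 lower. The 11 cytosines 433 kb downstream averaged 91.0% in ATO and 82.3% in the control, with 8 higher and 2 lower. Of these, 3 passed Fisher's exact test with differences under 25 points, all higher in ATO. The deepest, 21416914, read 94.7% of 208 reads in ATO and 73.7% of 205 in the control (Fisher's exact test, adjusted p = 8.5e-07), a difference of 21.1 points. The others were 21416851, at 83.4% in ATO and 60.8% in the control (Fisher's exact test, adjusted p = 0.0014), and 21416815, at 90.4% and 67.7% (adjusted p = 0.0049). These 3 lie close together, may share fragments and were singled out after their values were seen. With no minimum difference 13 of the 713 members passed, against 89664 of all 2312276 cytosines. The bin that holds them, at 21416501 to 21417000, read 91.7% in ATO and 76.8% in the control. It was not called (Fisher's exact test, unadjusted p = 0.0098, adjusted p = 0.24). The 6 cytosines 358 kb downstream averaged 68.8% in ATO and 58.9% in the control and held the fourth called cytosine of Reln, 21492412. It read 48.8% of 86 reads in ATO and 20.8% of 77 in the control (Fisher's exact test, adjusted p = 0.012). Intervals of both cluster differences, -2.65 to 20.1 and -6.00 to 25.2 points, include 0. The 7 cytosines at 455 kb averaged 80.05% in ATO and 84.9% in the control. Over the whole span Reln averaged 41.4% in ATO and 42.9% in the control, a difference of -1.45 points that was 1.19 points with every call weighted alike.

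**Figure D3:**
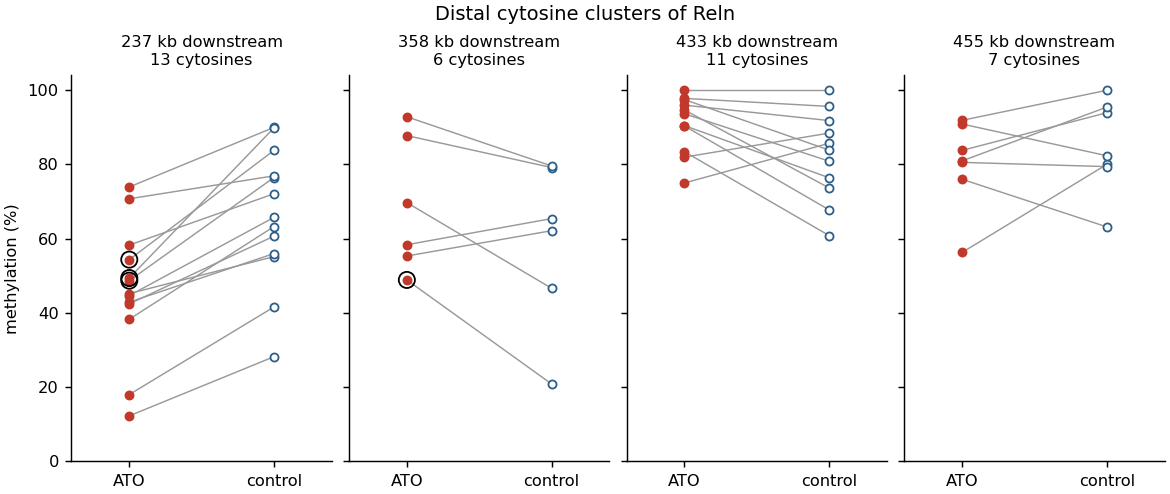
Methylation (percent) of each cytosine of the 4 distal Reln clusters in ATO (filled) and the control (open), joined by a line; distance from the start is above each panel and large circles mark called cytosines. All 13 lines rise toward the control at 237 kb, and most lines fall toward it at 358 and 433 kb.

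Pvalb, the calcium buffer of basket cells, was unmethylated at its CpG-dense start. The 25 CpGs printed above were all analysed and averaged 3.08% in ATO and 1.96% in the control, with 4 and 13 of them at exactly 0. Within 500 bp of the start the level was 4.53% ± 5.18 in ATO and 3.55% ± 7.04 in the control (SD over 40 cytosines), with 25 higher and 10 lower. The difference of 0.97 points had an interval of -5.08 to 7.18. Upstream of it, 5 cytosines from 842 to 1240 bp away averaged 67.5% in ATO (range 15.9 to 90.7%) and 71.4% in the control (19.2 to 100%), and no cytosine was analysed between 396 and 842 bp upstream. At the far end of the span, 17.9 to 19.5 kb downstream, 20 cytosines averaged 22.9% in ATO and 22.1% in the control, a difference of 0.74 points that was 3.18 points at a coverage minimum of 20. The called cytosine of the Pvalb span, 78015253, lay there, in the gene or in its flank, which cannot be told without an annotation. It read 40.5% of 42 reads in ATO (exact interval 25.6 to 56.7) and 3.33% of 30 in the control (0.08 to 17.2), with an adjusted p = 0.011 by Fisher's exact test. Its neighbour 2 bp away, 78015251, read 26.7% in ATO and 24.1% in the control. The 500-bp bin around both differed by 3.25 points.

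Sst, the neuropeptide gene, was read only close to its start, with 26 analysed cytosines between 101 bp upstream and 257 bp downstream. They averaged 6.30% ± 6.25 in ATO and 5.33% ± 8.29 in the control (SD over 26 cytosines), with 15 higher and 9 lower. The difference of 0.97 points had an interval of -7.68 to 9.79, against 1.77 points with at least 20 reads, 2.17 points with at least 30 and 1.76 points with every call weighted alike. The printed promoter holds 1 cyclic AMP response element, TGACGTCA, the classical site through which cyclic AMP drives this gene. This palindrome occurs in 1.79% of the promoters in the table. Its CpG, 45 bp upstream of the start, was methylated in 0 of 41 reads in ATO, which allows up to 7.32%, and in 0 of 47 in the control, which allows up to 6.38%, both as 3 counts of the total (exact 95% upper bounds 8.60% and 7.55%). The CpG at 23891017, upstream of this element, was the highest analysed Sst cytosine in both libraries, with 5 of 18 reads in ATO (27.8%, exact interval 9.69 to 53.5) and 8 of 19 in the control (42.1%, 20.3 to 66.5).

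Other genes of the GABA lineage and of other cell types were compared at their starts. Of 30 other GABAergic genes 14 could be placed, and all 14 had at least 5 analysed cytosines within 500 bp of the start. Their median level was 3.08% in ATO and 2.96% in the control, with 7 higher and 7 lower, and 0 of their 537 cytosines were called, against 0.179% of cytosines in all placed start windows. The 5 marker genes had median levels of 3.14% in ATO and 3.17% in the control there. Over all 11768 placed genes with enough cytosines the medians were 2.39% and 2.37%. The transcription factor gene Sox6 had the largest difference among the GABAergic genes, with 18.4% in ATO and 11.1% in the control over 14 cytosines and no called one. Among those higher in ATO it was followed by Lhx6, a regulator of interneuron fate, with 4.74% in ATO and 2.46% in the control. Cck, a neuropeptide gene of another basket cell class, had the most negative difference, with 4.34% in ATO and 8.31% in the control. The 9 placed glutamatergic genes had medians of 3.34% in ATO and 4.60% in the control, with 4 higher and 5 lower and a median difference per gene of -0.27 points. Bcl11b had the most negative difference among them, -2.87 points. Glial and vascular lists gave few starts: 2 of 8 astrocyte, 2 of 8 oligodendrocyte, 0 of 5 microglial and 2 of 4 endothelial genes. The astrocyte genes differed in opposite directions, Aldh1l1 at 37.3% in ATO and 47.1% in the control and Gja1 at 21.3% and 14.4%, with 1 called cytosine each. A further called cytosine lay at the glutamatergic gene Neurod2 (3.34% in ATO and 5.39% in the control). No difference between the lists was tested.

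**Figure D4:**
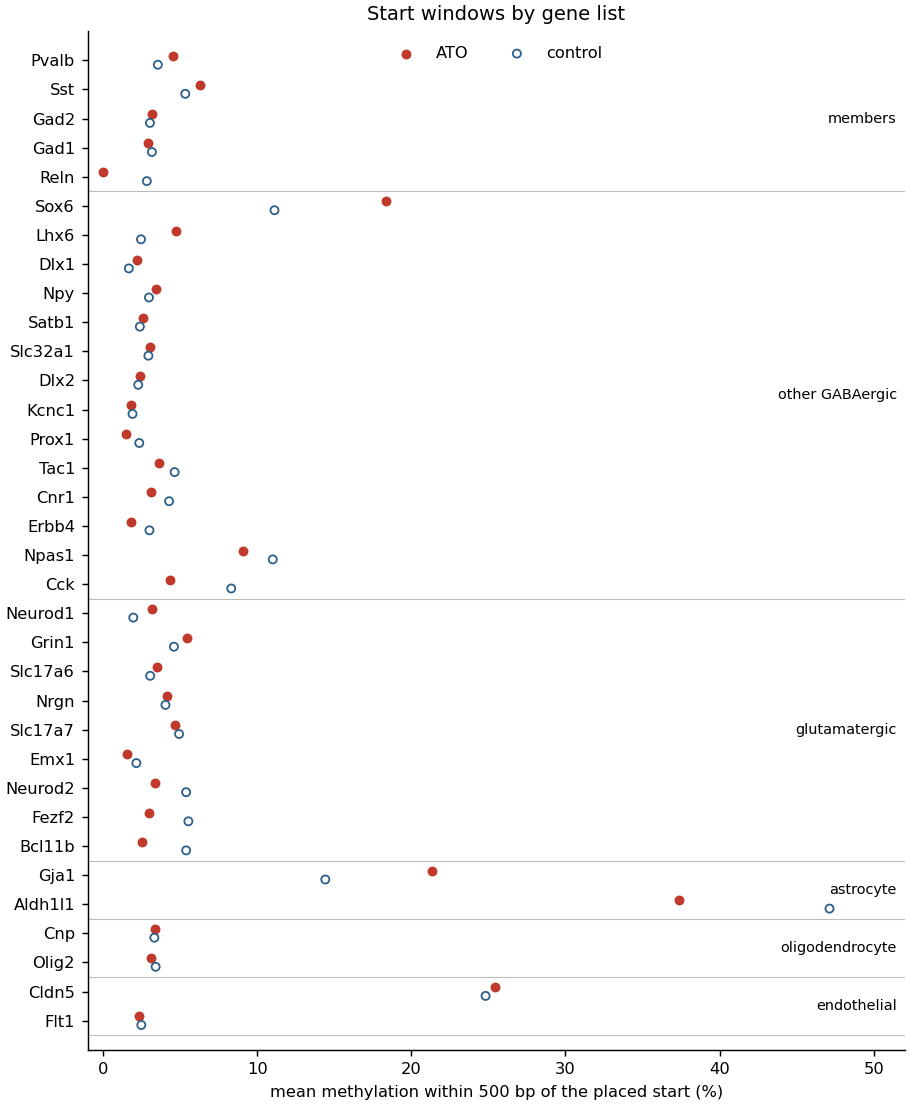
Mean methylation (percent) of analysed cytosines within 500 bp of the placed start for each gene, by list; filled points are ATO and open points, just below, the control. The 5 markers lie between 0 and 6.30% in both libraries, and the widest gaps are at Aldh1l1, Sox6 and Gja1.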

How the data were processed

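The deposited tables list CpG cytosines by strand. Per the file headers, coverage is a read count per cytosine, and the authors gave C and T as a percent of it with 2 decimals. Bismark 0.19.0, Bowtie2, bcl2fastq and the build mm9 come from the submitters' processing notes; trimming, duplicate removal and filters are not stated there. Libraries were capture-enriched with SureSelect Mouse Methyl-Seq after sonication, per the labels' protocols. The ATO library held 147924810 calls at 5973197 cytosines and the control 135987272 at 5772100.

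The product of coverage and percent C gave methylated counts, and all fell within 0.005 points of a whole count. Members and lists were chosen with earlier results of these data known. Fisher's exact tests were two-sided and adjusted over all 2312276 cytosines, or over all 152175 bins (500 bp, 5 or more analysed cytosines) (Python 3.11.15, numba 0.67.0). Bin sums were first divided by the most analysed cytosines in any 300-bp stretch, since calls on a fragment are not independent. Intervals of levels used the same division and exact (Clopper-Pearson) 95% intervals of the pooled calls. For a difference the exact arms of both levels were joined as the root of their summed squares. These were centred on the mean difference over cytosines, which weights calls otherwise, so intervals of differences are approximate. Intervals and the limit of 3 counts behind a 0 cover counting error only, and reads may include duplicates. Callers were tested on simulated counts drawn independently for each cytosine, without shared fragments or dispersion between strands. Placement was tested on simulated positions that listed every CpG of a promoter. Neither simulation shows how often calls or placements are wrong in the real data.

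RefSeq promoters with at least 8 CpGs (3 for members, searched in their spans) were placed by CpG spacing. At least 80% of the CpGs had to be listed, with at most 1 further CpG of 5 or more reads in the window and a score at least 4 above the next best. Of 15983 tried, 13827 were placed, and 22 that broke the order of neighbouring genes by over 20 kb were dropped. Named were the 5 members, their called cytosines, the bin of largest difference in each, and the 3 highest and 3 lowest genes of the other lists. Other cytosines were named after their values were seen. Alternatives covered coverage, strand, weighting, bins, thresholds and window size.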

Additional observations from a re-analysis of the deposited data

How the results depend on the processing

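No paired analysis was possible because each group has 1 library. The mean difference of Gad1 was 0.35 to 1.73 points and that of Pvalb 0.30 to 2.32 points over the alternatives. The sign turned with every call weighted alike for Gad2 (0.38 points) and Reln (1.19 points), and for Sst with cytosines of 20 to 80% only, where 1 cytosine gave -14.3 points; all but that of Sst lay inside the intervals for counting error. The 5 called cytosines became 2 at an adjusted p under 0.01 and 13 with no minimum difference. They became 0 after division of all counts by the dispersion between a CpG's strands (2.77), which lowers the effective read number. In the whole table the calls went from 61225 to 39902, 89664 and 1915 at these settings, in the same order. The other 5 settings gave 5 member calls. Called bins stayed at 0 in 8 of 9 settings and were 1 with sums not divided, the Reln bin at 21613001. The mean level of the Pvalb start window was 9.99% with a window of 1000 bp, which takes in methylated cytosines, against 4.04%. The sign of the start window difference turned for Gad1 (0.35 points, 250 bp), Gad2 (-0.38 points at 1000 bp, -0.21 and -0.28 at coverage minimums of 20 and 30) and Reln (0.77 points, coverage minimum of 5). The Reln start window held no cytosine at coverage minimums of 20 and 30 or within 250 bp. Low depth at the starts of Gad1 and Reln limits what can be said of them. The difference of the Reln cluster that begins at 21854103, upstream of the start, was 4.47 points at a coverage minimum of 5, against -2.53 points. Leaving out genes and other coverage minimums for clusters were chosen after seeing the data.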

Other observations

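Forward-strand reads were rare in the unmethylated runs, and at Sst they went against the reverse strand. In the control library the forward strand of Sst was listed at 16 CpGs with 1 or 2 reads each, and 23 of 23 calls were methylated. At this depth the calls may come from a few fragments of 1 library and do not count as separate evidence. On the reverse strand of the same run 59 of 1611 control calls were methylated (3.66%). The ATO library listed 0 forward cytosines there and 93 of 1612 methylated calls on the reverse strand (5.77%). In the runs of Gad1 and Gad2 forward calls were methylated at 4.78% and 4.64% in ATO and at 3.13% and 4.29% in the control; on the reverse strand the shares were 3.32% and 3.23% in ATO and 3.87% and 3.95% in the control. In the run of Reln forward calls were methylated at 1.24% in ATO and 0.63% in the control. On its reverse strand the shares were 1.68% in ATO and 3.25% in the control. Most of the listed calls in the Reln promoter were on the forward strand, and the shares given for it pool both strands. None of the forward cytosines of Sst reached 10 reads, so they entered no comparison.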
